A study of Mus musculus with 3 samples.

Results

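Endothelial cells, the lining cells of blood and lymph vessels, were examined in 3 single-cell RNA libraries of mouse liver. A barcode, the tag shared by all RNA of 1 droplet, was taken as endothelial when it held at most 30% mitochondrial unique molecular identifiers (UMIs, each standing for 1 captured RNA molecule), at least 4 UMIs over Ptprb, Kdr, Stab2, Gpr182, Dnase1l3, Clec4g, Mmrn2, Aqp1, Egfl7 and Cdh5 from at least 3 of these 10 genes, and 0 UMIs of Cd3e, Cd79a, Clec4f and Krt19, which mark T cells, B cells, Kupffer cells and bile duct cells. Of 36990 barcodes, 548 met this rule. They were 166 in the control library (CON), 292 in the high-fat diet library (HFD) and 90 in the carbon tetrachloride library (CCL4). Members with at least 1 UMI of Stab2, Clec4g or Dnase1l3, genes typical of sinusoidal endothelium, are called marked (492 barcodes) and those without are called unmarked (56 barcodes).

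All mice were wild-type male C57BL/6, 8 weeks old at the start. Control mice were left untreated, HFD mice received a diet with 60% of energy from fat for 4 months, and CCL4 mice received chow for 3 months and then 4 weeks of intraperitoneal CCl4, a liver toxin, as 2 injections per week of 0.1 mL of a 10% solution. Every library held the pooled cells of 2 mice, with hepatocytes and nonparenchymal cells mixed 1:1 after collagenase digestion and a Percoll gradient, so the share of a cell type reflects the mixing as well as the liver. There was 1 library per condition. No test between conditions was therefore possible and no p-value is given, and all 95% intervals below cover counting error only.

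Liver sinusoidal endothelial cells form the wall of the sinusoids, lack a basement membrane and are perforated by fenestrae. They clear waste molecules from blood through scavenger receptors such as stabilins and the mannose receptor. They also send secreted signals to hepatocytes, and those near the central vein supply the Wnt ligands and R-spondin that maintain pericentral hepatocyte gene expression. Vascular endothelium of larger vessels instead carries von Willebrand factor and selectins, and lymphatic endothelium depends on the transcription factor Prox1.

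The sequences before the start sites of 3 of the genes that chose the barcodes are shown because these genes define the population. They stand for the hyaluronan receptor Stab2 and the lectin Clec4g, both sinusoidal, and for the vascular endothelial growth factor receptor Kdr of all endothelium. Each is the 250 bases before the start site on the minus strand of GRCm38.p6 as given by RefSeq, written 5′ to 3′ along the gene. In capitals is AGGAAG or its reverse complement, a form of the site bound by ETS factors. The positions are chr10:87007943-87008192 for Stab2, chr8:3720652-3720901 for Clec4g and chr5:75978456-75978705 for Kdr.
Stab2: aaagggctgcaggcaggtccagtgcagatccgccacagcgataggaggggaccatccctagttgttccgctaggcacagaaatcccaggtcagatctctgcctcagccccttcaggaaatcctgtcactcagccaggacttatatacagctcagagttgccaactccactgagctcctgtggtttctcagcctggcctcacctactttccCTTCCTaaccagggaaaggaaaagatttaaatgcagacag
Clec4g: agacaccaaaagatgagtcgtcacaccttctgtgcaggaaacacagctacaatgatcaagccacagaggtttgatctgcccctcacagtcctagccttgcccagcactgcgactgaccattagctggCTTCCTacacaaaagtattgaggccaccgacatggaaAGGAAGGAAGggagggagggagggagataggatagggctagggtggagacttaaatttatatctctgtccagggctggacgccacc
Kdr: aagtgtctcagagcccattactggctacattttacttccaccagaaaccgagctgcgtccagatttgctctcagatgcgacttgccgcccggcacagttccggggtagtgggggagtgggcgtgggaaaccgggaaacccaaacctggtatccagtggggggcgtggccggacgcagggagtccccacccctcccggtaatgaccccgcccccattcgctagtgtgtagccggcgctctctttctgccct
Stab2 held 1 match and Clec4g 3, of which a pair overlaps, and Kdr held none. AGATAA, a form of the site bound by GATA factors, was in none of these windows on either strand. Other forms of either site, such as those with only the shorter cores GATA and GGAA, were not counted. Over 32851 RefSeq promoters of this length, 29.5% held AGGAAG and 9.99% held AGATAA. A match is a description of letters and not a bound site. The windows of Ptprb, Gpr182, Dnase1l3, Mmrn2 and Cdh5 were not analysed here.

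The members held 944036 UMIs in CON, 847079 in HFD and 273152 in CCL4. The median member had 4099.5, 2476.5 and 2626 UMIs, against 2934, 2331 and 2170 for all other barcodes. The members made up 1.48% of kept barcodes in CON (1.27 to 1.72), 2.25% in HFD (2.00 to 2.52) and 0.705% in CCL4 (0.567 to 0.866). Fewer endothelial cells in the liver and fewer surviving digestion and mixing cannot be told apart. Barcode sequences were shared between libraries in 36, 49 and 52 cases, for CON with HFD, CON with CCL4 and HFD with CCL4, and 0 of these were members in both.

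A single control member stood apart. It held 112469 UMIs, 11.9% of all control member UMIs, with 3395 UMIs of the platelet chemokine Pf4 and 9 UMIs of the rule's genes. Without it the normalized levels (CPM, a gene's UMIs per 1000000 UMIs of the members) of the other genes in CON were up to 1.14 times as high, and Pf4 in CON was 25.3 CPM in place of 3619 CPM. Values are given with all members, and the counts of a list against CON are given again where they differed without this barcode.

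The members were chosen by the measured UMIs of these 10 genes, whose levels are therefore a description. The phosphatase Ptprb stood at 1802 CPM in CON, 1322 in HFD and 838 in CCL4, and Kdr at 898, 1073 and 545 CPM. The sinusoidal genes Stab2, Clec4g and Dnase1l3, which encodes a DNA-degrading enzyme, were at 235, 286 and 154 CPM, at 626, 628 and 370 CPM, and at 737, 1233 and 703 CPM in the same order. Vascular endothelial cadherin, Cdh5, was at 555, 498 and 509 CPM. The median member held 34 UMIs of the 10 genes in CON, 21 in HFD and 13 in CCL4, and the members carried 72.4%, 77.1% and 64.4% of each library's UMIs of these genes.

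**Figure D1:**
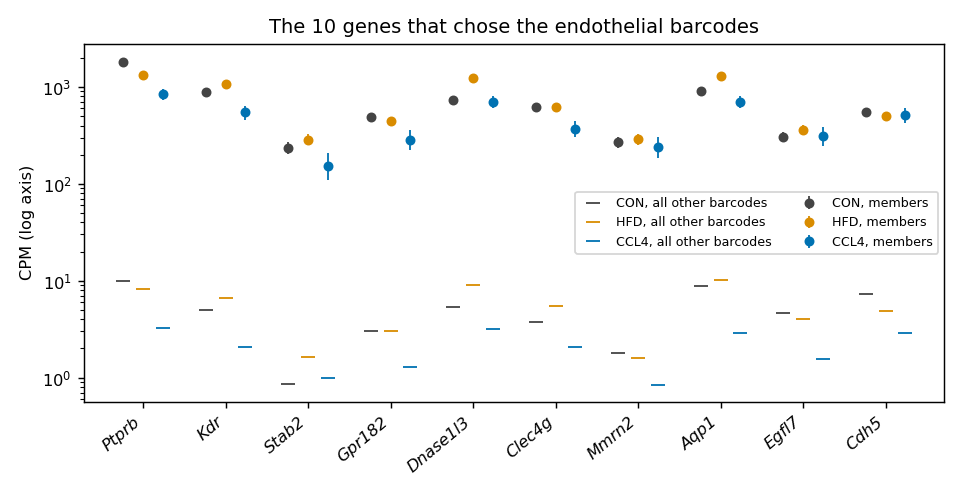
CPM on a log axis of the 10 genes used to choose the barcodes. Points are members of each library with 95% Poisson intervals, and dashes are all other kept barcodes of the same library. Every gene was at 154 CPM or more in the members and near 10 CPM or below in the other barcodes.

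Barcodes at the edge of the rule were poorer in endothelial RNA. The summed level of 26 pan-endothelial genes that the rule did not use was 573, 660 and 984 CPM in CON, HFD and CCL4 members with exactly 4 UMIs (4, 18 and 5 barcodes). It was 829, 1004 and 842 CPM in barcodes with exactly 3 UMIs from 3 genes (9, 13 and 17 barcodes), and 6084, 5649 and 4203 CPM in members with more. In all other barcodes it was 213, 199 and 215 CPM.

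The label held for genes outside the rule. The adhesion molecule Pecam1 was at 387 CPM in CON (348 to 428), 371 in HFD (331 to 414) and 329 in CCL4 (265 to 405), and at 20.0, 11.0 and 6.90 CPM in other barcodes. It had a UMI in 73.5%, 61.0% and 56.7% of members and in 10.1%, 4.36% and 4.19% of T-cell barcodes, which should lack most of it. The angiopoietin receptor Tek was at 194, 184 and 113 CPM against 1.19, 0.937 and 0.355 CPM. Stab1, the other stabilin, was at 344, 348 and 201 CPM against 2.98, 1.76 and 0.799 CPM. The transcription factor Gata4 was at 92.2, 94.4 and 65.9 CPM, and 4.00 CPM or less elsewhere.

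Of 2552 genes with at least 50 CPM in the members of every library, 178 (6.97%) had at least 5 times the (CPM + 5) of all other barcodes in each library. Since the rule chose barcodes of this kind, the list is a description. The adhesion receptor Adgrf5, which led it, stood at 477, 458 and 432 CPM in CON, HFD and CCL4 members and at 3.17, 2.93 and 1.36 CPM elsewhere. Next came the endocytic recycling protein Ehd3 (968, 985 and 619 CPM), the bone morphogenetic protein Bmp2, which signals iron stores to hepatocytes (894, 709 and 425 CPM), the integrin-binding protein Adam23 (342, 347 and 300 CPM), and the metalloproteinase inhibitor Timp3 (1531, 717 and 589 CPM). The list also held the mannose receptor Mrc1, the fatty acid carrier Fabp4, the TGF-beta co-receptor Eng, the lipoprotein lipase anchor Gpihbp1 and the Wnt enhancer Rspo3. AGGAAG was in the promoter window of 42.7% of the 131 of these genes that matched RefSeq, and AGATAA in 5.34%. Of all promoters, 29.5% and 9.99% held them.

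Markers of other cell types were present to unequal degrees. The leukocyte gene Ptprc had a UMI in 39 CON members (23.5%), 58 HFD members (19.9%) and 15 CCL4 members (16.7%). The 12 hepatocyte markers, of which all 12 were over 50 CPM, summed to 39330 CPM in CON, 91169 in HFD and 114848 in CCL4, led by Fabp1 in CON and HFD and Alb in CCL4. In T-cell barcodes of the same libraries they summed to 36890, 99176 and 125512 CPM, and in all other barcodes to 84862, 136261 and 159596 CPM. Hepatocyte RNA was thus at a like level in T-cell barcodes and in members, and its part in the comparisons between libraries was not tested. The 10 stellate cell and fibroblast markers summed to 1646, 710 and 483 CPM, led by the proteoglycan Dcn, and Col1a1 was at 0 in CCL4. Of the 6 of these over 50 CPM in either library, 5 were 2-fold or more lower in HFD than in CON (Dcn, Lrat, Rgs5, Colec11 and Lum, median log2 ratio −1.25) and 4 in CCL4 (Dcn, Lrat, Rgs5 and Lum, median −2.02). Of all genes tested, 7.58% were lower in HFD than in CON and 15.3% in CCL4. Kupffer cell and macrophage markers summed to 347, 552 and 253 CPM, led by Lyz2 with Marco at 0 in every library. Granulocyte markers were at 1122, 258 and 3.66 CPM, and hemoglobin and other erythroid markers at 4186, 1170 and 1018 CPM. Of the UMIs of the granulocyte gene S100a8, 1 barcode held 279 of 428 in CON and 1 held 53 of 87 in HFD. Of the HFD B and plasma cell list, at 1456 CPM, a single barcode held 979 of 1233 UMIs.

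**Figure D2:**
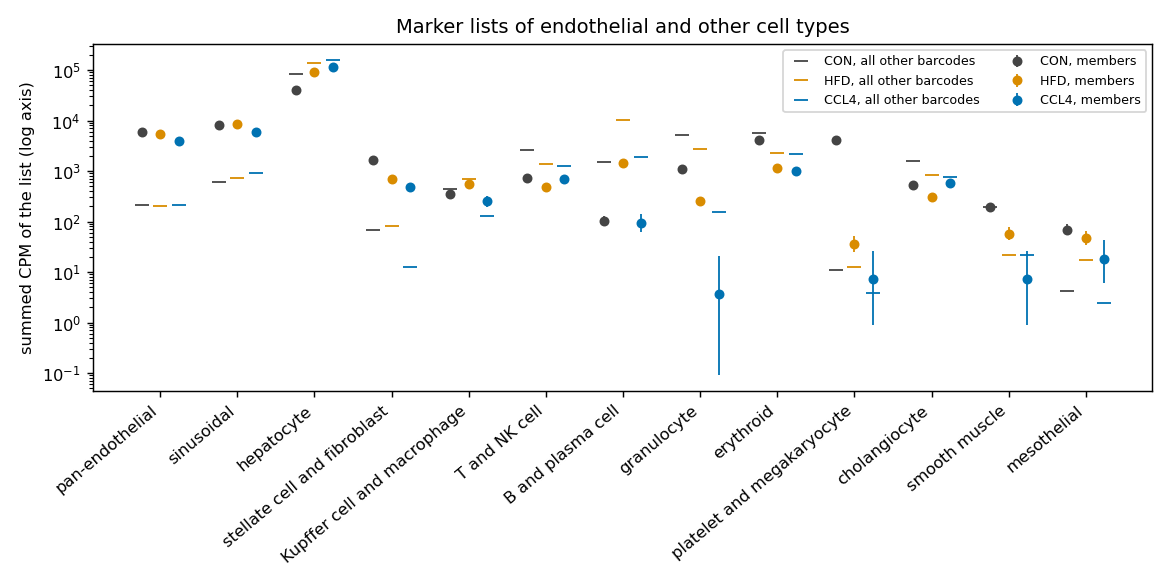
Summed CPM on a log axis of marker lists for endothelial and other cell types in members (points with 95% Poisson intervals) and all other barcodes (dashes) of each library. Pan-endothelial and sinusoidal lists stood above the other barcodes in every library, and the hepatocyte list ran from 39330 to 114848 CPM in the members.

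A gene was called past the fold when its (CPM + 5) differed at least 2-fold between libraries and it reached 50 CPM in either. Between HFD and CON, 291 of 4065 genes were higher in HFD (7.16%) and 308 were lower (7.58%). Between CCL4 and CON, 418 of 4105 were higher in CCL4 (10.2%) and 629 lower (15.3%). Between CCL4 and HFD, 164 of 3758 were higher (4.36%) and 227 lower (6.04%). Without the large control barcode, 244 of 4057 genes were higher and 303 lower in HFD than in CON, and 390 of 4104 higher and 628 lower in CCL4 than in CON. The 3 comparisons share libraries and are not independent. Scaled to the pan-endothelial genes in place of all UMIs, the counts higher and lower were 378 and 215, 949 and 225, and 480 and 93. The balance of directions thus depended on the scaling in all 3 comparisons. The median log2 ratio of all genes was −0.15 for HFD against CON, −0.25 for CCL4 against CON and −0.06 for CCL4 against HFD. Under that scaling it was 0.01, 0.36 and 0.40.

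Genes past the fold were ranked among those at least 2 times as high in members of the higher library as in its other barcodes. These are called member-enriched below. The filter does not show that a gene is endothelial. With the large control barcode left out, it let through the macrophage gene C1qa. A gene entered this ranking through the library where it was high. The ranking therefore names genes, and nothing is read from how many went either way. Of 1070 member-enriched genes in HFD against CON, 5 were higher and 141 lower. Of 1108 in CCL4 against CON, 11 were higher and 311 lower. The shares of all genes set beside the lists also cover hepatocyte genes, and so are not those of member-enriched genes. Higher in HFD than in CON were the endothelin receptor Ednrb (105 against 43.4 CPM), the lysophosphatidic acid receptor Lpar6 (80.3 against 32.8), the tight junction protein Cldn5 (242 against 105), the angiogenesis receptor Clec14a (244 against 112) and the G protein Gna11 (145 against 67.8). Without the large control barcode, which held at most 3 UMIs of each, Cldn5, Clec14a and Gna11 were no longer past the fold, and Ednrb and Lpar6 were.

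Of the 25 pan-endothelial genes measured, 2 were past the fold higher in HFD than in CON (Cldn5, Clec14a) and 1 lower (S1pr1, the sphingosine-1-phosphate receptor). These shares were near the 7.16% higher and 7.58% lower of all genes. The list's median log2 ratio was −0.07, with a sign that turned to 0.08 when scaled to this list itself, where S1pr1 was no longer past the fold. With the large control barcode left out, 0 were higher and 2 lower (Calcrl and S1pr1). S1pr1 was at 226 CPM in CON and 109 in HFD, and at 209 in CCL4. Of 19 sinusoidal genes outside the rule, the hyaluronan receptor Lyve1 was past the fold, lower in HFD, a count near the share of all genes. Lyve1 stood at 175 CPM in CON (149 to 204), 56.7 in HFD (41.8 to 75.1) and 168 in CCL4 (123 to 225), so HFD was 3.08-fold below CON (2.22 to 4.35) and the CON and CCL4 intervals overlapped. The Fc receptor Fcgr2b was at 782, 1083 and 469 CPM, highest in HFD.

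Of 13 angiocrine ligands measured, 6 were lower in HFD than in CON, beside 7.58% of all genes, and 0 higher, with a list median of −0.89 on the log2 scale. Wnt2 was past the fold higher when scaled to pan-endothelial genes or to UMIs outside abundant genes, and not by all UMIs. Hgf, the hepatocyte growth factor, was at 165 CPM in CON (140 to 193), 30.7 in HFD (20.1 to 45.0) and 47.6 in CCL4 (25.3 to 81.4). The activin subunit Inhbb was at 214, 43.7 and 58.6 CPM, and in other barcodes below 1 CPM. For Hgf the ratio of CON to HFD was 5.38 (3.54 to 8.50) and for Inhbb 4.90 (3.44 to 7.16). In both, HFD and CCL4 lay below CON with no overlap of intervals. The iron regulator Bmp6 (69.9, 24.8 and 25.6 CPM), the Kit ligand Kitl (131, 53.1 and 18.3 CPM) and the matrix protein Ccn2 (99.6, 20.1 and 62.2 CPM) were the other ligands lower in HFD, with Tgfb1, at 172, 69.7 and 22.0 CPM. The large control barcode held 58 of the 162 Tgfb1 UMIs, and without it CON was 1.80-fold above HFD in Tgfb1. Without that barcode 7 ligands were lower, with Edn1 and Ccn1 in and Tgfb1 out. Stellate cells also make Hgf and Ccn2, and the part of the stellate cell list, lower in the same libraries, was not tested.

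Of 12 adhesion molecules and chemokines measured, 5 were lower in HFD than in CON (Sele, Selp, Ccl2, Cxcl1 and Csf1), beside 7.58% of all genes, and 0 were higher, with a median of −0.82. Vcam1 was lower as well without the large control barcode, which makes 6. E-selectin, Sele, a receptor for rolling leukocytes, was at 108 CPM in CON (88.1 to 131), in 23 barcodes, 16.5 in HFD (9.04 to 27.7), in 10 barcodes, and 7.32 in CCL4 (0.887 to 26.4), in 2 barcodes. The macrophage growth factor Csf1 was at 253, 57.8 and 22.0 CPM. The neutrophil chemokine Cxcl1 was at 292, 47.2 and 150 CPM in members and at 394, 71.9 and 177 CPM in other barcodes, so it followed the library as a whole. Vcam1 was at 448, 240 and 271 CPM, and the interferon-induced chemokine Cxcl10 at 267, 322 and 329 CPM.

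Of 8 acute-phase and metal-binding genes measured, 6 were lower in HFD than in CON (median −3.39) and 6 lower in CCL4 than in CON (median −2.93), beside 7.58% and 15.3% of all genes. Cebpd joined those lower in HFD, 7 in all, without the large control barcode, and 6 were lower in CCL4. The zinc-binding metallothionein Mt1 was at 4698 CPM in CON, 286 in HFD and 432 in CCL4 members, and at 10832, 164 and 409 CPM in other barcodes. The iron-binding protein Lcn2 was at 886, 26 and 14.6 CPM, and at 2191, 98 and 39 CPM elsewhere. The serum amyloid gene Saa2 was at 6558, 267 and 84.2 CPM in members, below its 15930, 311 and 94.3 CPM in other barcodes. How much of these came from free RNA of other cells was not tested. Steap4, a metal reductase, was at 677, 80.3 and 121 CPM, and the interleukin receptor Il1r1 at 217, 77.9 and 29.3 CPM in members beside 130, 10.4 and 10.6 CPM elsewhere. Il6 was at 68.9 CPM in CON, from 65 UMIs in 5 barcodes of which 1 held 31, with 1 UMI in HFD and 0 in CCL4. Without the members of highest Scrublet scores, Il6 turned to higher in HFD than in CON. Of 17 immediate-early and heat shock genes, 7 were lower in HFD and 6 in CCL4 than in CON, again beside 7.58% and 15.3% of all genes, among them the chaperones Hspa1a (231, 68.5 and 54.9 CPM) and Hspb1 (245, 54.3 and 25.6 CPM), whereas Fos was at 1998, 1561 and 1845 CPM. Atf3 was lower in HFD as well without the large control barcode, which makes 8. Under the pan-endothelial scaling 6 were lower in HFD and 5 in CCL4, and the CCL4 median turned from −0.30 to 0.32. Of the class I antigen presentation genes, 0 of 7 were past the fold in HFD against CON, 0 of 7 in CCL4 against CON and 0 of 6 in CCL4 against HFD. With 4.36% higher and 6.04% lower of all genes in CCL4 against HFD, and the shares above in the others, a list of this size would hold few calls, so nothing is read from these counts.

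Genes named by size alone were mostly those of other cells. The highest in HFD against CON were Ighg2b, Jchain and Igkc, of which 1 HFD barcode held 879 of 1082 Igkc UMIs, then the peroxisomal enzyme Acaa1b (49.8 CPM in CON and 1234 in HFD) and the P450 Cyp2a5 (6.36 and 148 CPM). Acaa1b was at 120 and 1678 CPM in other barcodes. In CCL4 against CON they were the hepatocyte genes Hamp2, Etnppl, Cyp7a1, Cyp2b9 and Hsd17b6, with Hamp2 at 0 CPM in CON, 61.4 in HFD and 516 in CCL4 members beside 2.43, 96.2 and 902 CPM elsewhere. The lowest against CON were Pf4, Rab27b and Ppbp of the large barcode, with Mup11 (715 CPM in CON, 3.66 in CCL4), S100a8, Saa2, Lcn2 and Mt2. Of the lower member-enriched genes, Rgs18, Treml1, Slc14a1, F2rl2, Serpine2, Prkar2b, Mgp and Rgs10 had most of their CON UMIs in 1 barcode. The prostaglandin synthase Ptgs2, with at most 30 of 103 UMIs in 1 barcode, was at 109 CPM in CON, 7.08 in HFD and 0 in CCL4.

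**Figure D3:**
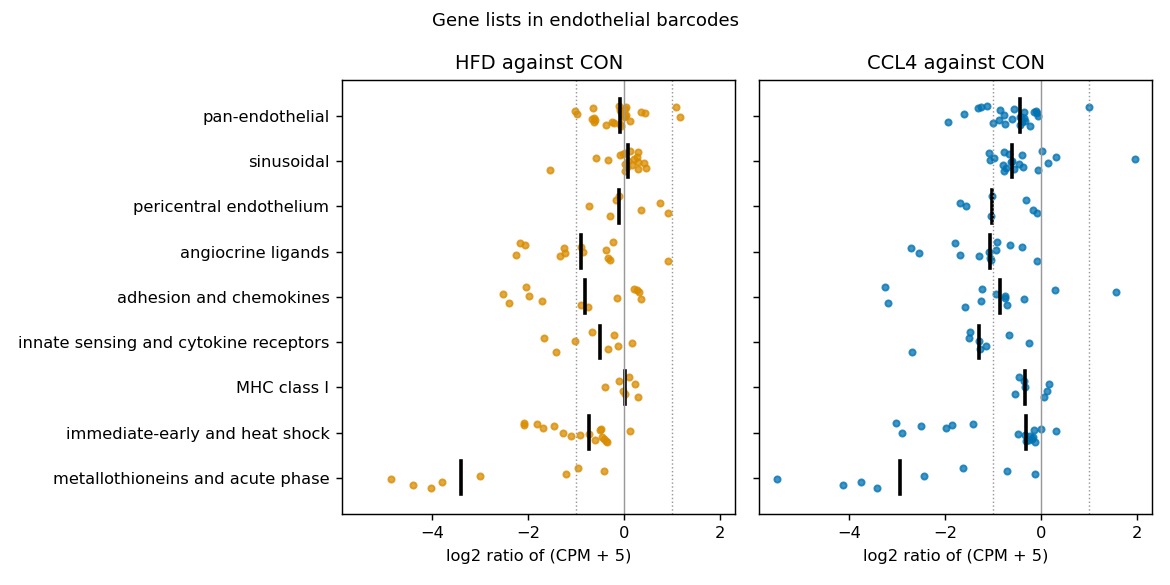
Log2 ratio of (CPM + 5) for each gene of 9 lists, HFD against CON and CCL4 against CON, with 1 library per group. Points are genes with at least 50 CPM in either library, black bars are list medians and dotted lines mark 2-fold. Metallothioneins and acute-phase genes had medians of −3.39 and −2.93.

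In the CCL4 library, the fatty acid and thrombospondin receptor Cd36 was highest. Cd36 stood at 114 CPM in CON (93.8 to 138), 133 in HFD (110 to 160) and 458 in CCL4 (381 to 545), and had a UMI in 51 of 166, 86 of 292 and 59 of 90 members. CCL4 lay apart from both other libraries, 4.00-fold above CON (3.07 to 5.22) and 3.43-fold above HFD (2.64 to 4.46). In other barcodes Cd36 was at 29.0, 88.8 and 101 CPM and in T-cell barcodes at 11.4, 69.0 and 61.5 CPM. In CCL4 it was therefore above both.

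Other member-enriched genes were higher in CCL4 than in CON. The interferon-gamma-induced T cell chemokine Cxcl9 was at 58.3 CPM in CON, 74.4 in HFD and 183 in CCL4 (136 to 241), against 19.5, 11.4 and 9.65 CPM elsewhere. The retinoic acid-degrading enzyme Cyp26b1 was at 123, 86.2 and 271 CPM and near 1 CPM elsewhere. It was 2.20-fold higher in CCL4 than in CON (1.62 to 2.98), 1.94-fold without the large control barcode, and 3.14-fold higher than in HFD (2.24 to 4.40). Ednrb was at 117 CPM in CCL4, 2.70-fold above CON (1.64 to 4.39), so both treated libraries were above CON in it. Clec14a, at 231 CPM in CCL4, was past the fold with all members and not without the large barcode, and the same held for Cyp26b1 and Rcan1. The ubiquitin ligase Trim25 (64.6, 90.9 and 172 CPM) and the mitochondrial leucyl-tRNA synthetase Lars2 (114, 264 and 275 CPM) were also among them, as were Trp53i11, Zkscan1, Tnpo2 and Rcan1.

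Of 25 pan-endothelial genes, 6 were lower in CCL4 than in CON (Eng, Flt1, Calcrl, Tm4sf1, She and Arhgap31) and 1 was higher. Beside them, 15.3% of all genes tested and 311 of 1108 member-enriched genes were lower, so nothing is read from these counts. The list median of −0.43 became 0.18 when scaled to the list itself, where Flt1 alone was lower. When the large control barcode was left out, 0 were higher and 8 lower, with Erg and Rasip1. The growth factor receptor Flt1 was at 464 CPM in CON (422 to 510), 299 in HFD (263 to 338) and 117 in CCL4 (80.1 to 165). The 3 intervals did not overlap, and CON was 3.96-fold above CCL4 (2.76 to 5.86). The adrenomedullin receptor Calcrl was at 508, 257 and 165 CPM in the same order. Of the 19 sinusoidal genes, Bmp2 and the semaphorin receptor Nrp2 were lower and Cd36 higher, beside 15.3% lower and 10.2% higher of all genes. Nothing is read from these counts. The list median of −0.61 was 0.01 under the pan-endothelial scaling. Cd36 alone was past the fold under that scaling and under the scaling outside abundant genes. The lipid phosphatase Plpp3 was lower as well without the large control barcode.

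Angiocrine ligands were lower in CCL4 than in CON in 8 of 13 cases (Rspo3, Bmp2, Bmp6, Hgf, Kitl, Edn1, Tgfb1 and Inhbb) and higher in 0, beside 15.3% of all genes lower, which is also the background of the other lists here, with a median of −1.07, and 4 of them (Hgf, Kitl, Tgfb1 and Inhbb) were still past the fold when scaled to pan-endothelial genes. Cxcl12 and Igfbp7 were lower as well without the large control barcode, 10 in all. Bmp2, which restrains iron uptake through hepatocyte hepcidin, was at 894 CPM in CON (835 to 956), 709 in HFD (654 to 769) and 425 in CCL4 (351 to 509). Of 8 innate sensing and cytokine receptor genes, 6 were lower (Il1r1, Il6st, Tnfrsf1a, Nfkbia, Tnfaip3 and Il4ra) and 0 higher, with a median of −1.28, and only Il1r1 was so under the pan-endothelial scaling. Of 12 adhesion and chemokine genes, 5 were lower (Icam1, Sele, Selp, Cxcl16 and Csf1) and Cxcl9 was higher, and 6 were lower without the large control barcode, with Cxcl1. Under the pan-endothelial scaling Sele and Csf1 alone were lower, and the median went from −0.85 to −0.23. Of 6 coagulation genes, 4 were lower (Vwf, Thbd, Anxa2 and Pros1), and under the pan-endothelial scaling Vwf alone. Basement membrane genes, which rise when sinusoids lose their fenestrae in fibrosis, had 1 of 8 past the fold, Col4a1, at 215 CPM in CON, 126 in HFD and 87.9 in CCL4, and none under the pan-endothelial scaling. Leaving out the large control barcode, 3 of 8 were lower (Plvap, Col4a1 and the collagen-binding protein Sparc). Plvap, of the diaphragms of capillaries, was at 234, 158 and 124 CPM, and Cd34 at 12.7, 8.26 and 3.66 CPM.

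In CCL4 against HFD, Cd36, Cyp26b1, Lyve1, Ccn2 and the microtubule regulator Stmn1 were among the 10 highest member-enriched genes. The prostaglandin transporter Slco2a1 was at 127 CPM in CON, 209 in HFD and 32.9 in CCL4, and HFD was 6.34-fold above CCL4 (3.27 to 14.1). The growth arrest ligand Gas6 was at 235, 215 and 62.2 CPM. Olfm1 (82.6, 127 and 22.0 CPM) and Cpne2 (77.3, 94.4 and 22.0 CPM) were highest in HFD and lowest in CCL4.

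Position along the sinusoid was read from genes known for the central and the portal end. Of 7 pericentral genes measured, 0 were past the fold in HFD against CON, beside 7.16% higher and 7.58% lower of all genes, and Wnt2 was higher under the pan-endothelial scaling and the scaling outside abundant genes. In CCL4 against CON 4 were lower (Rspo3, Thbd, Kit and Ptgs1), beside 15.3% of all genes, and 0 higher, median −1.01, with Kit alone past the fold under the pan-endothelial scaling. The receptor Kit was at 177 CPM in CON (151 to 206), 303 in HFD (267 to 343) and 51.3 in CCL4 (28.0 to 86.0). These intervals were separate, with HFD highest. Wnt2 was at 96.4 CPM in CON (77.6 to 118), 188 in HFD (160 to 219) and 91.5 in CCL4 (59.2 to 135), so CON and CCL4 could not be told apart. Wnt9b, the other Wnt ligand of the central vein, had 25 UMIs in CON, 26 in HFD and 1 in CCL4. Rspo3 was at 555, 451 and 267 CPM and was carried by 47, 79 and 21 barcodes. Thrombomodulin, Thbd, was at 357, 215 and 117 CPM.

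Of 4 periportal genes measured, 0 were past the fold against CON in either library, and the arterial ephrin Efnb2 was higher in CCL4 than in HFD, at 66.7 CPM in CON, 33.1 in HFD and 73.2 in CCL4. The Notch ligand Dll4 was at 44.5, 16.5 and 32.9 CPM. Without the large control barcode 5 were measured, of which 3 were lower in HFD than in CON (Efnb2, Dll4 and the scavenger receptor Msr1), with a median of −1.02, and 1 in CCL4 (Msr1), beside 7.58% and 15.3% of all genes lower. Under the scaling outside abundant genes, 1 of 5 periportal genes, Dll4, was lower in HFD than in CON. The periportal median of CCL4 against CON turned from −0.32 to 0.30 under the pan-endothelial scaling. The counts of the pericentral and periportal lists thus depended on the scaling. Their balance within a library, the ratio of their UMIs, does not. Pericentral UMIs, without Fabp4, stood to periportal UMIs as 1339 to 466 in CON without the large barcode (ratio 2.87, 2.58 to 3.20), 1210 to 263 in HFD (4.60, 4.02 to 5.28) and 183 to 106 in CCL4 (1.73, 1.35 to 2.21). Relative to CON the balance was 1.60 times in HFD (1.35 to 1.90) and 0.601 times in CCL4 (0.463 to 0.780), and relative to HFD it was 0.375 times in CCL4 (0.285 to 0.493). With Fabp4, which then held 1290 of 2629 pericentral UMIs in CON, the ratios were 5.64, 8.54 and 4.55, and relative to CON the balance was 1.51 times in HFD (1.29 to 1.78) and 0.806 times in CCL4 (0.639 to 1.02). HFD was thus above CON either way, whereas CCL4 was apart from CON when Fabp4 was left out and not when it was kept. In marked members alone, without Fabp4, the ratios were 2.46 in CON (2.18 to 2.77), 4.34 in HFD (3.77 to 5.00) and 1.67 in CCL4 (1.29 to 2.16). In unmarked members they were 5.78, 8.69 and 2.57, with the large barcode kept in CON. Of the members, 15.2% in CON, 40.4% in HFD and 23.3% in CCL4 held UMIs of pericentral genes only, and 13.3%, 7.53% and 20.0% of periportal genes only. Median depth was highest in CON, and these shares were not corrected for it.

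**Figure D4:**
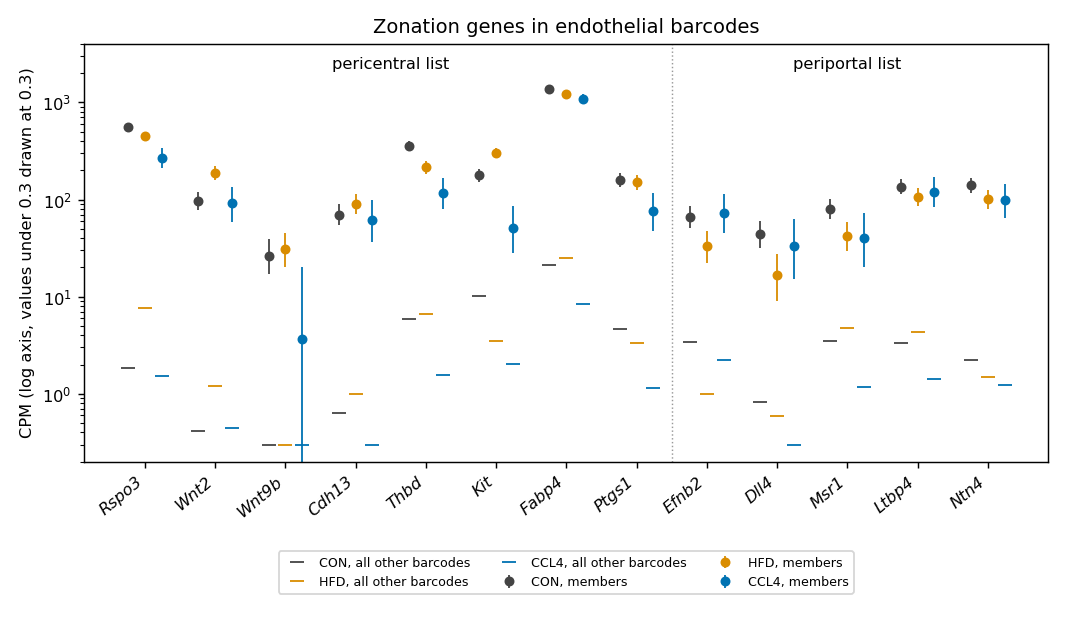
CPM on a log axis of 8 pericentral and 5 periportal endothelial genes in members (points with 95% Poisson intervals) and other barcodes (dashes) of the 3 libraries. Kit was highest in HFD at 303 CPM and lowest in CCL4 at 51.3 CPM, and Wnt9b rested on 1 UMI in CCL4.

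Marked members were 81.3% of all members in CON (74.6 to 86.9), 93.8% in HFD (90.4 to 96.3) and 92.2% in CCL4 (84.6 to 96.8), and 67.3%, 84.9% and 76.4% when each member was thinned to 1500 UMIs. Since Stab2, Clec4g and Dnase1l3 made this split, other genes describe it. Of 2716 genes, 72 were at least 2-fold higher in marked members in all 3 libraries (2.65%) and 8 in unmarked members (0.295%), and 40 and 13 without the large control barcode, which is unmarked. The unmarked classes held 31, 18 and 7 barcodes, so values in CCL4 rest on few UMIs. There 1 unmarked UMI was 44.3 CPM, and a gene with 0 passed the fold at any level tested. The large barcode held 47.2% of the unmarked UMIs of CON, and without it the unmarked CON levels of genes absent from it were 1.89 times as high.

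The sinusoidal genes outside the rule summed to 10060 CPM in marked and 3415 CPM in unmarked members of CON without the large barcode, to 8795 and 2881 CPM in HFD and to 6354 and 2788 CPM in CCL4. Mrc1, the mannose receptor, was at 577 CPM in marked and 21.0 in unmarked members of CON, at 576 and 68.6 in HFD and at 315 and 44.3 in CCL4. For Bmp2 the values were 1132 and 189 CPM in CON (6.00-fold, 4.44 to 8.29), 757 and 68.6 in HFD and 455 and 88.5 in CCL4. Kit was at 231 and 16.8, 321 and 68.6, and 55.9 and 0 CPM, where 0 UMIs allow up to 133 CPM, so that no difference in Kit was detectable in CCL4. Without the large barcode, unmarked CON members were at 39.7 CPM in Mrc1, 357 in Bmp2 (marked 3.17-fold higher, 2.35 to 4.38) and 23.8 in Kit, so in CON these 3 stayed higher in marked members. The prostaglandin-degrading enzyme Hpgd, the semaphorin Sema6a, the collagen Col13a1, Steap4 and Cldn5 were among the 10 with the highest ratios. Dcn, a fibroblast proteoglycan, and the extracellular superoxide dismutase Sod3 were as well. The CCL4 ratio intervals of Hpgd, Col13a1, Steap4, Cldn5 and Sod3 included 1, with 0 unmarked UMIs of each. In HFD the intervals of Steap4 and Sod3 included 1. Dcn was at 1104 and 4.20 CPM in CON, 369 and 0 in HFD and 196 and 0 in CCL4. Dcn had a UMI in 23, 19 and 4 members, and at most 18.5 CPM in T-cell barcodes, and whether these droplets held a stellate cell beside an endothelial cell was not tested.

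Of the 8 genes higher in unmarked members, Vwf and Selp are on the large-vessel list. This list summed to 2796 CPM in unmarked and 1532 CPM in marked members of CON without the large barcode, to 1732 and 991 CPM in HFD and to 1726 (1228 to 2360) and 1106 (979 to 1244) CPM in CCL4, where the intervals overlapped. The clotting protein Vwf was at 482 CPM in unmarked and 109 in marked members of CON (4.42-fold, 3.28 to 5.98), at 257 and 26.6 in HFD (9.66-fold, 4.63 to 19.7) and at 88.5 and 16.0 in CCL4, from 2 and 4 UMIs (5.55-fold, 0.502 to 38.7). P-selectin, Selp, stored with Vwf, was at 361 and 142, 189 and 46.9, and 354 and 55.9 CPM. The vasoconstrictor endothelin, Edn1, was at 151 and 39.7, 206 and 22.8, and 133 and 20.0 CPM, and the elastic fiber protein Fbln2 at 138 and 19.8, 240 and 19.0, and 88.5 and 27.9 CPM, where the CCL4 ratio of 3.17 (0.321 to 16.6) rests on 2 unmarked UMIs. Without the large barcode, unmarked CON members were at 691 CPM in Vwf, 421 in Selp, 286 in Edn1 and 262 in Fbln2. The taurine transporter Slc6a6, Rcc2, the DNA methyltransferase Dnmt1 and the monooxygenase Fmo2 were the other 4. Rcc2 and Dnmt1 in CON rested on the large barcode, without which unmarked members were at 31.8 and 0 CPM beside 35.4 and 18.4 CPM in marked members. With at least 3 UMIs required in each library, 4 of the 8 were left.

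**Figure D5:**
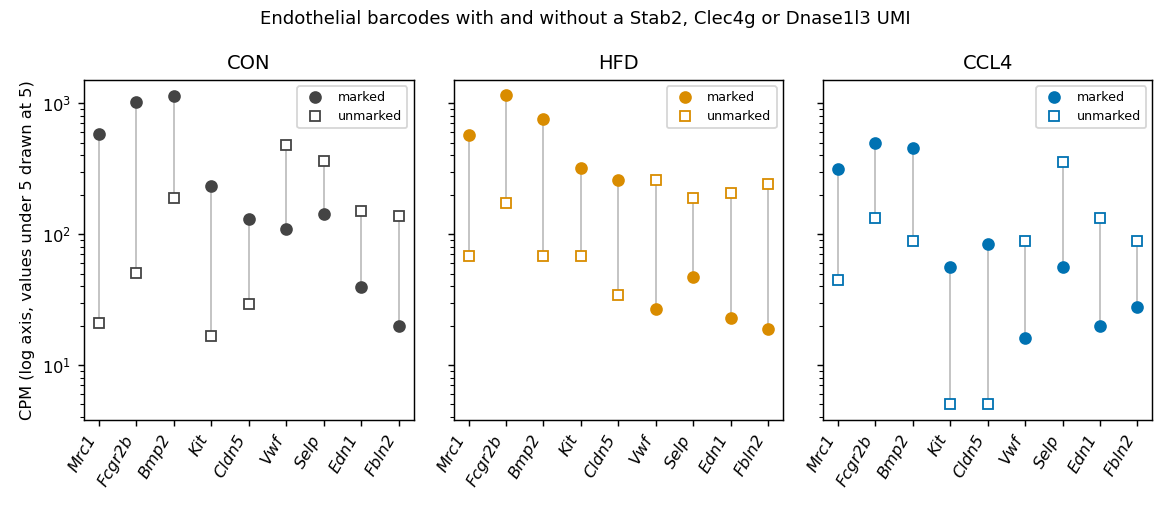
CPM on a log axis in marked members (filled circles) and unmarked members (open squares) of each library, with values under 5 CPM drawn at 5. The unmarked CON values include the large control barcode. Mrc1, Fcgr2b and Bmp2 lay higher in marked members of every library, and Selp and Edn1 in unmarked members, whereas in CCL4 the ratios of Kit, Cldn5, Vwf and Fbln2 had intervals that included 1.

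Over all members, Vwf, Selp and Gja4 were highest in CON, where the share of unmarked barcodes was also highest, and the part of that share in their levels was not tested. Vwf was at 203 CPM in CON (176 to 234), 42.5 in HFD (29.8 to 58.8) and 22.0 in CCL4 (8.06 to 47.8), and the gap junction gene Gja4 at 211, 155 and 47.6 CPM. Of 7 large-vessel genes measured, 2 were lower in HFD (Vwf and Selp) and 3 in CCL4 (with Gja4) than in CON, beside 7.58% and 15.3% of all genes, and 0 were higher. Under the pan-endothelial scaling Selp was no longer past the fold in CCL4, and the CCL4 median went from −0.88 to −0.27. Efnb2 was lower in HFD as well without the large control barcode (3 of 7), and Plvap in CCL4 (4 of 7). The arterial connexin Gja5 was at 1.06, 3.54 and 0 CPM. Lymphatic genes were rare. Prox1 was at 56.1, 93.3 and 65.9 CPM, below its 86.3, 119 and 97.4 CPM in other barcodes, where hepatocytes express it. The lymphatic genes Mmrn1 and Ccl21a rested on at most 2 barcodes per library, 0 in CCL4, and Pdpn was at 0, 2.36 and 0 CPM.

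The genes the study was about were near the limit of detection. The receptor of bacterial endotoxin, Tlr4, had 6, 5 and 2 UMIs in CON, HFD and CCL4 members, or 6.36 CPM (2.33 to 13.8), 5.90 (1.92 to 13.8) and 7.32 (0.887 to 26.4), and its intervals overlapped. T-cell barcodes had 1.73, 0.661 and 0 CPM. The neurotrophin Bdnf had 0 UMIs in 166 CON members, which, by the limit of 3 counts, allows a share of members with a UMI of up to 1.81%, with 3 UMIs in HFD and 1 in CCL4. At 3.54 and 3.66 CPM in those it was near the 4.95 and 1.85 CPM of T-cell barcodes.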

How the data were processed

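The tables the authors deposited hold UMI counts, not normalized, for each gene and barcode of 3 libraries, made with the 10x Genomics Chromium 3′ v3.1 kit and, per the file headers, Cell Ranger 7.2.0. Seurat is also named in the submitters' processing notes. The study's methods name the genome mm10 and the notes name GRCm39, so no gene coordinates of the count tables are given. How barcodes were called as cells is not given in the sources used here. Library totals were 49613255 UMIs (CON), 34985786 (HFD) and 34061186 (CCL4), and every library was counted as 1 sample. Replicate spread is unknown.

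Barcodes with over 30% mitochondrial UMIs were left out (38, 1 and 0). Scrublet, run per library at an expected rate of 8%, marked 2, 1 and 2 barcodes, which amounts to no removal of doublets. UMIs were summed over the members and scaled to CPM. Intervals are exact Poisson for CPM, Clopper-Pearson for shares and exact conditional for ratios, at 95%. Those for the pericentral to periportal balance of 1 library relative to another are a normal approximation on the log scale. A count of 0 allows up to 3 counts. Mitochondrial and ribosomal protein genes, the 10 genes of the rule and the 4 excluded genes were left out of the comparisons. T-cell barcodes, the background for shares, held at least 4 UMIs from 3 T cell genes. Thinning to 1500 UMIs used expected values.

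Named genes are those of the gene lists, and the 10 highest and 10 lowest ratios per comparison among member-enriched genes. They are also the 5 highest and 5 lowest of all genes, and the 10 leading genes of each direction between marked and unmarked members. The 15 leading genes against all other barcodes, and Bdnf and Tlr4, are named as well. The members and lists were chosen with earlier results of these data known. Adhesion, zonation and other lists are not independent of those results. The ranking, the rule, the intervals and the thinning were tested on simulated data. Promoters are RefSeq sequences of GRCm38.p6, and 5 of the 10 genes of the rule matched the promoter table used here. Alternatives were 12 set at the start and 4 added after the data were seen. Python 3.11.15, numpy 2.4.6, scipy 1.17.1, pandas 2.3.3, scanpy 1.11.5 and matplotlib 3.10.9 were used.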

Additional observations from a re-analysis of the deposited data

Results flagged for a closer look

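Some barcodes carried the endothelial genes at the level of the rule but also a UMI of Cd3e, Cd79a, Clec4f or Krt19, and so stood outside the members. They numbered 26 in CON, 29 in HFD and 10 in CCL4, a signal in data the comparisons did not use. Their pan-endothelial genes summed to 7432, 4343 and 3117 CPM, and 23, 23 and 8 of them had a Stab2, Clec4g or Dnase1l3 UMI. Cd3e was present in 12, 17 and 7 of them, Cd79a in 13, 7 and 3, Clec4f in 3, 6 and 0, and Krt19 in 0. Their B and plasma cell list was at 654, 52749 and 33847 CPM. Whether they were doublets was not tested.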

How the results depend on the processing

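No paired analysis was possible because each condition had 1 library, and for the same reason no replicate could be left out. The CCL4 library had the fewest members, 90, and the fewest member UMIs, 273152. Without a minimum level, the counts higher and lower were 629 and 924 for HFD against CON, 846 and 2259 for CCL4 against CON, and 512 and 1245 for CCL4 against HFD, with 277 genes higher in marked and 4 in unmarked members. With a minimum of 100 CPM, 196 genes were higher and 170 lower in HFD than in CON, 285 were higher and 306 lower in CCL4 than in CON, and 103 were higher and 99 lower in CCL4 than in HFD. That minimum left 95 genes led by the endothelium, 35 higher in marked and 3 in unmarked members. With 20 CPM added in place of 5, the counts were 202 higher and 195 lower in HFD than in CON, 104 higher and 135 lower in CCL4 than in HFD, 98 led by the endothelium and 5 higher in unmarked members. Under both settings more genes were higher than lower in HFD against CON, in place of fewer (291 and 308). The share of calls that were higher also moved with scaling: for HFD against CON it was 48.6%, 56.7% when scaled to UMIs outside mitochondrial, hepatocyte and the 20 most abundant genes, and 63.7% when scaled to pan-endothelial genes. For CCL4 against CON the shares were 39.9%, 50.3% and 80.8% (949 higher and 225 lower by the pan-endothelial scaling), and for CCL4 against HFD 41.9%, 47.0% and 83.8% (480 and 93).

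Genes higher in unmarked members, 8 in the main count, were 30 with at least 6 UMIs from 4 genes, 36 with 0 UMIs of Ptprc, 20 without the highest Scrublet scores, 24 by the scaling outside abundant genes, 29 with each barcode weighted equally, 13 without the large control barcode, 14 without barcodes with at least 1% of another cell type's list, and 4 with at least 3 UMIs in each library. Between 4 and 8 of the main 8 were shared with each of these. Genes higher in marked members were 40 without the large control barcode and 40 without barcodes rich in another list. The marked share was 73.5%, 81.8% and 76.7% in CON, HFD and CCL4 with at least 2 UMIs required and 67.3%, 84.9% and 76.4% after thinning, so under both it was lowest in CON, with HFD above CCL4. Among single genes, HFD against CON turned to higher for Pf4 (0.45, log2) and C1qa (0.35) with 0 Ptprc UMIs and for Il6 (0.39) without the highest Scrublet scores. Ppbp turned with 6 UMIs from 4 genes (0.57), without Aqp1 and Egfl7 in the rule (0.55), with 0 Ptprc UMIs (2.23), without the large control barcode (0.51) and without barcodes rich in another list (0.47). Rab27b turned with 6 UMIs from 4 genes (0.0076), without Aqp1 and Egfl7 (0.0065), with 0 Ptprc UMIs (0.28) and without barcodes rich in another list (0.24). In CON, 1 barcode held 3395 of 3416 Pf4 UMIs, 270 of 277 of Ppbp and 144 of 146 of Rab27b. The large control barcode had UMIs of 3 of the rule's genes, so the setting with 4 genes left it out. The cause was not tested.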
